A study of Mus musculus with 14 samples.

Results

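The transcripts described here are those of 10 stress and stimulus response genes: the inducible heat shock genes Hspa1a and Hspa1b and the immediate early genes Fos, Fosb, Jun, Junb, Egr1, Egr2, Dusp1 and Ier2. They were taken as every probe set whose platform annotation names exactly 1 of these symbols, which gave 14 probe sets for 10 of the 18194 genes measured; where a gene had several, the brightest by mean over the arrays stood for it and the others served as a check. Expression was measured on 14 Affymetrix arrays in mouse bone marrow cells sorted as LSK cells (lineage negative, Sca1 and Kit positive), a fraction that contains hematopoietic stem and multipotent progenitor cells. All groups came from hCD34 x H2BGFP double transgenic mice on a C57BL/6 background, backcrossed for at least 10 generations, in which a human CD34 promoter drives the tetracycline transactivator behind a GFP-tagged histone H2B. Every animal had received doxycycline, which shuts off new label, at 1 mg/ml in its drinking water for 12 weeks, beginning at 6 to 8 weeks of age. The groups differ in the GFP level at which the cells were sorted, from GFP0 (label most diluted by division, 2 arrays) through GFP1 (3), GFP2 (3) and GFP3 (2) to GFP4 (label retained, 4), with roughly 1 to 2 divisions between neighbours. The labels call the arrays biological replicates without saying which animals, or how many, lie behind each, so the p-values measure the spread between sorted samples, and the few arrays per level limit precision.

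Immediate early genes are transcribed within minutes of a stimulus, without new protein synthesis, when kinase cascades act on factors such as SRF with its partners and CREB that already sit at their promoters; their RNAs are short-lived. Fos and Jun family proteins pair into the AP-1 transcription factor, the Egr proteins are zinc finger transcription factors, and Dusp1 is a phosphatase that switches MAP kinases off again. Hspa1a and Hspa1b encode nearly identical inducible Hsp70 chaperones that HSF1 turns on when proteins unfold; in hematopoietic cells both programmes are known to answer to cytokines and stress.

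The 250 bases before the transcription start are shown for 5 members whose values the results turn on (RefSeq, GRCm38.p6, each read 5′ to 3′ on the gene's strand). RefSeq windows were used for 8 of the 10 members (all but Egr1 and Ier2), 12 windows in all. For the pair Hspa1a (chr17:34972157-34972406, minus strand) and Hspa1b (chr17:34959239-34959488, minus strand), capitals mark the only bases that differ between them.
Hspa1a: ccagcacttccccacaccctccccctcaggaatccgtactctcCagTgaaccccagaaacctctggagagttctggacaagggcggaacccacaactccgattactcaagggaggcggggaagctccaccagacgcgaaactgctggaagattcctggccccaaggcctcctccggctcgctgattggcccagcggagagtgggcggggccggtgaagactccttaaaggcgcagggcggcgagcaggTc
Hspa1b: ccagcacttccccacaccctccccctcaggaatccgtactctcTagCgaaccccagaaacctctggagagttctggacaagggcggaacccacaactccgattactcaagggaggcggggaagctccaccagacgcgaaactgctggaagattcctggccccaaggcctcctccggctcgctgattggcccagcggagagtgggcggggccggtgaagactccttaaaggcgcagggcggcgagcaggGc
These windows were identical at 247 of 250 positions (98.8%), with the 3 differences at 207, 204 and 2 bases before the start and an identical run of 201 bases between them. For Fos (chr12:85473640-85473889, plus strand), Egr2 (chr10:67537619-67537868, plus strand) and Dusp1 (chr17:26508473-26508722, minus strand), capitals mark matches to the motifs searched.
Fos: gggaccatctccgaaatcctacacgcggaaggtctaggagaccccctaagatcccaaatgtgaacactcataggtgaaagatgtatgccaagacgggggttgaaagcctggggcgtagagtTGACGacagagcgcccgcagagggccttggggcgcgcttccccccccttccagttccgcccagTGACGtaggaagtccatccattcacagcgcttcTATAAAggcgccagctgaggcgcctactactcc
Egr2: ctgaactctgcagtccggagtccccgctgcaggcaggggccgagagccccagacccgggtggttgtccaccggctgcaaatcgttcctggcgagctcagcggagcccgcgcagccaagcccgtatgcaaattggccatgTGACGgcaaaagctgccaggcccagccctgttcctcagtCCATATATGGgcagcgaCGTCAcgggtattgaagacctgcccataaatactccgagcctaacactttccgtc
Dusp1: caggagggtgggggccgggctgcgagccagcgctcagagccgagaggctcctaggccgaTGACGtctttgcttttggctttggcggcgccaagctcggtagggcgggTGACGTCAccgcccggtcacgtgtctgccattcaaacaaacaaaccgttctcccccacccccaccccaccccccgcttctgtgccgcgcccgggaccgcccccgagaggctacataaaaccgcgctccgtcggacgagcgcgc

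The motifs, searched on both strands, were a heat shock element of 3 alternating GAA and TTC units, the CArG box bound by SRF (CC, a run of A or T, GG), the cyclic AMP response element TGACGTCA and its part TGACG (each TGACGTCA holds TGACG on both strands), the AP-1 site TGANTCA, the Egr site GCGGGGGCG and the TATA box TATAAA. Of all 32851 RefSeq windows of this length, 0.466% held the heat shock element, 1.47% a CArG box, 1.55% TGACGTCA, 17.8% TGACG, 6.75% TGANTCA, 2.57% GCGGGGGCG and 12.4% TATAAA. The Fos window held TGACG at 129 and 66 bases before the start and TATAAA at 33. The Egr2 window shown held a CArG box at 72 bases, with TGACG at 111 and its reverse complement at 55; of the 5 Egr2 windows, 4 held a CArG box. The Dusp1 window held TGACGTCA at 143 bases and a further TGACG at 191. Fosb had TGACG at 60 and GCGGGGGCG at 50, Junb had TGACG at 106, and none of the motifs was found in the windows of Hspa1a, Hspa1b and Jun. A heat shock element with an imperfect unit, or with fewer than 3 units, was not searched for. A match is a run of letters, not a measured site, and binding was not measured here.

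All values are log2 expression as deposited, with a median of 7.03 over the whole table, and differences are log2 differences. Arrays of one level correlated with r between 0.928 and 0.990. Kit lay between 8.05 and 9.91 and Cd34 between 9.73 and 12.0 over the arrays, whereas Itgam, a myeloid lineage marker, lay between 4.92 and 5.60. Markers of other blood cells were nevertheless present: the mean of 15 neutrophil, monocyte and macrophage genes lay between 9.20 and 10.6 in GFP0, 7.32 and 10.2 in GFP1, 7.05 and 9.60 in GFP2, 7.27 and 7.77 in GFP3, and 7.23 and 9.11 in GFP4. GFP4 replicate 1 (2.21) and GFP0 replicate 1 (2.09) had the narrowest interquartile ranges, against up to 2.73 elsewhere. In RNA from sorted pools, fewer cells of a type and less RNA per cell cannot be told apart.

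Across the 5 levels the members showed 2 kinds of pattern. Hspa1a was high in both GFP0 arrays and low in every array from GFP1 to GFP4, and Egr2 was highest in the GFP0 arrays with GFP4 replicate 1 close below them. Fos, Fosb, Egr1, Dusp1 and Ier2 instead varied between arrays of the same level, and no difference between levels passed for them. Their range was widest in GFP4, where Fos spanned 4.83 log2 units, but GFP4 also has the most arrays. By SD Fos varied more over the 2 GFP3 arrays (2.46) than over the 4 GFP4 arrays (2.13). The SDs of Fosb, Egr1, Dusp1 and Ier2 were highest in GFP4. Tests were limma's moderated tests fitted on all 18194 genes and 14 arrays, two-sided; p-values were adjusted by Benjamini-Hochberg over the whole table and read at 0.05. By the slope per GFP level 2 of the 10 members were lower towards GFP4 (Hspa1a and Egr2) and none higher, where 1.07% of all genes were lower, 2.28% higher and 3.35% called in either direction. For GFP4 against GFP0 1 member was called (Hspa1a, lower), where 0.429% of all genes were lower, 1.25% higher and 1.68% called in all, and the moderated F test for any difference among the levels called 1 (Hspa1a) against 0.698% of all genes. The median GFP4 minus GFP0 difference was -0.76 over the 10 members and -0.04 over all genes; without GFP0 replicate 1 the members' median was -1.31, and without GFP0 replicate 2 it was -0.55.

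**Figure D1:**
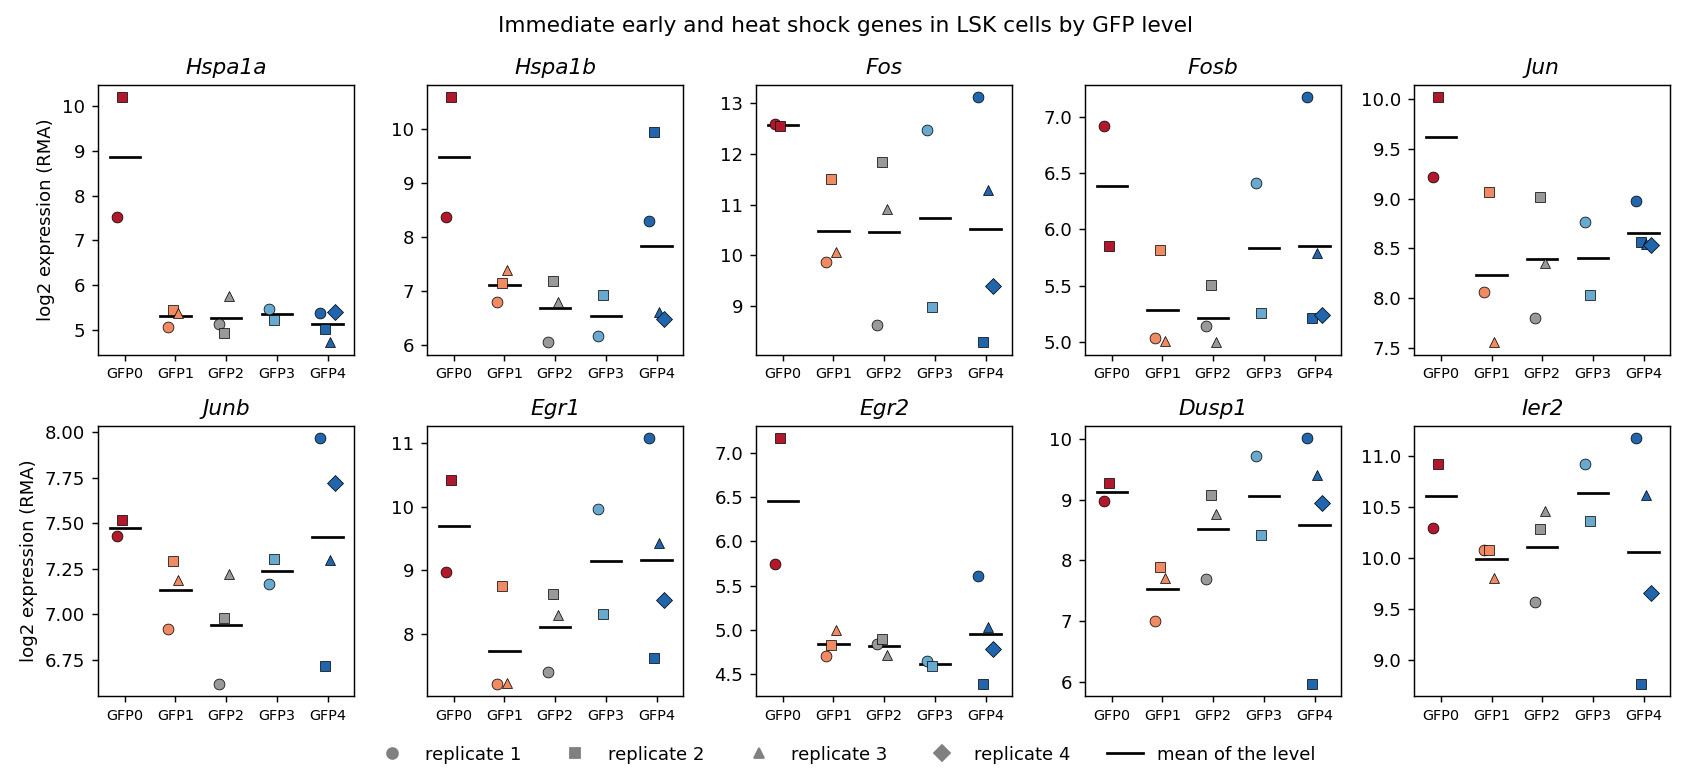
Log2 expression (vertical axis) of each of the 10 members on each of the 14 arrays, by GFP level from GFP0 to GFP4; points are arrays, bars are level means. Hspa1a sits apart in GFP0, Egr2 is highest there with GFP4 replicate 1 (5.61) near GFP0 replicate 1 (5.74), and Fos, Egr1 and Dusp1 spread widely inside GFP4.

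Hspa1a, the inducible Hsp70, had 7.53 and 10.20 in GFP0, 5.07, 5.44 and 5.38 in GFP1, 5.13, 4.92 and 5.76 in GFP2, 5.47 and 5.22 in GFP3, and 5.38, 5.02, 4.72 and 5.39 in GFP4. Both GFP0 arrays lay above all the others, and the 12 arrays from GFP1 to GFP4 overlapped between 4.72 and 5.76. Hspa1a averaged 5.13 ± 0.32 over the 4 GFP4 arrays and 8.86 ± 1.89 over the 2 GFP0 arrays (mean ± SD), so that it fell by 3.74 ± 0.52 (SE; 13.3-fold lower, limma adjusted p = 0.0055). The slope was -0.74 ± 0.12 per level (limma adjusted p = 0.00508) and the F test gave an adjusted p of 0.0251. A straight line describes these levels poorly: GFP4 differed from the mean of GFP1 and GFP2 by only -0.16 ± 0.39 (limma adjusted p = 0.842). Its 12 lower arrays were dimmer than the table's median, and no detection calls come with the values, so how far it truly drops below them is not measured.

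The size of this difference rested on the GFP0 array with 10.20. Without GFP0 replicate 2 the GFP4 minus GFP0 difference was -2.40 and the slope -0.48, both still past the threshold by limma; without GFP0 replicate 1 they were -5.08 and -1.01. Fitted on the GFP4 and GFP0 arrays alone, the difference of -3.74 had an adjusted p of 0.0649, and with array quality weights, which let noisy arrays count less, -3.85 had an adjusted p of 0.0738. A regression on the level, which weights arrays rather than levels equally, gave a slope of -0.60 with an adjusted p of 0.109. Markers of other cells were high in the same level: in GFP0 replicate 2, which had the highest Hspa1a, the mean was 9.20 for the neutrophil, monocyte and macrophage list, 8.79 for 8 erythroblast genes and 8.95 for 8 mast cell and basophil genes. GFP1 replicate 1 had means of 10.2, 8.55 and 8.95 for these lists and an Hspa1a value of 5.07. With the neutrophil, monocyte and macrophage mean as a covariate (chosen after seeing the data) the difference was -4.37 (limma adjusted p = 0.0159). No fit used the other marker lists as covariates. GFP0 replicate 2 had the highest erythroblast (8.79) and megakaryocyte (9.39) means of the 14 arrays. The part of other cells in the Hspa1a difference was not tested.

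Hspa1b, the near copy, behaved otherwise outside GFP0. It had 8.36 and 10.58 in GFP0, 6.79, 7.14 and 7.39 in GFP1, 6.04, 7.18 and 6.80 in GFP2, 6.15 and 6.91 in GFP3, and 8.30, 9.93, 6.60 and 6.47 in GFP4. GFP4 replicate 2 therefore reached into the range of the GFP0 arrays and replicate 1 came close to it, and the groups overlapped. Hspa1b averaged 7.83 ± 1.63 over the 4 GFP4 arrays and 9.47 ± 1.57 over the 2 GFP0 arrays (mean ± SD); the difference of -1.65 ± 0.83 did not pass (limma adjusted p = 0.393), nor did the slope of -0.39 ± 0.19 (limma adjusted p = 0.328). Both other Hspa1b probe sets followed the brightest one over the arrays (r = 0.98 and 0.96, as a description) and were high in the same GFP4 array, at 9.19 and 7.34. In that array Hspa1a was 5.02.

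Because the coding sequences of both genes are nearly identical, signal cannot be assigned to one copy with certainty. Among the Hspa1b probe sets, the brightest (suffix _a_at) and 1 other (suffix _x_at) carry suffixes that the manufacturer gives to sets able to bind several transcripts. Over the 12 arrays from GFP1 to GFP4 the Hspa1a and Hspa1b sets correlated with r = -0.14. With level means removed over all 14 arrays r was 0.42, and it was 0.66 without GFP4 replicate 2 and 0.74 without GFP4 replicates 1 and 2. Over all 14 arrays the samples form a high GFP0 cluster and the rest for Hspa1a, so its pooled r with Hspa1b is not printed. The pair is still counted below among those that passed by pooled Pearson's r.

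**Figure D2:**
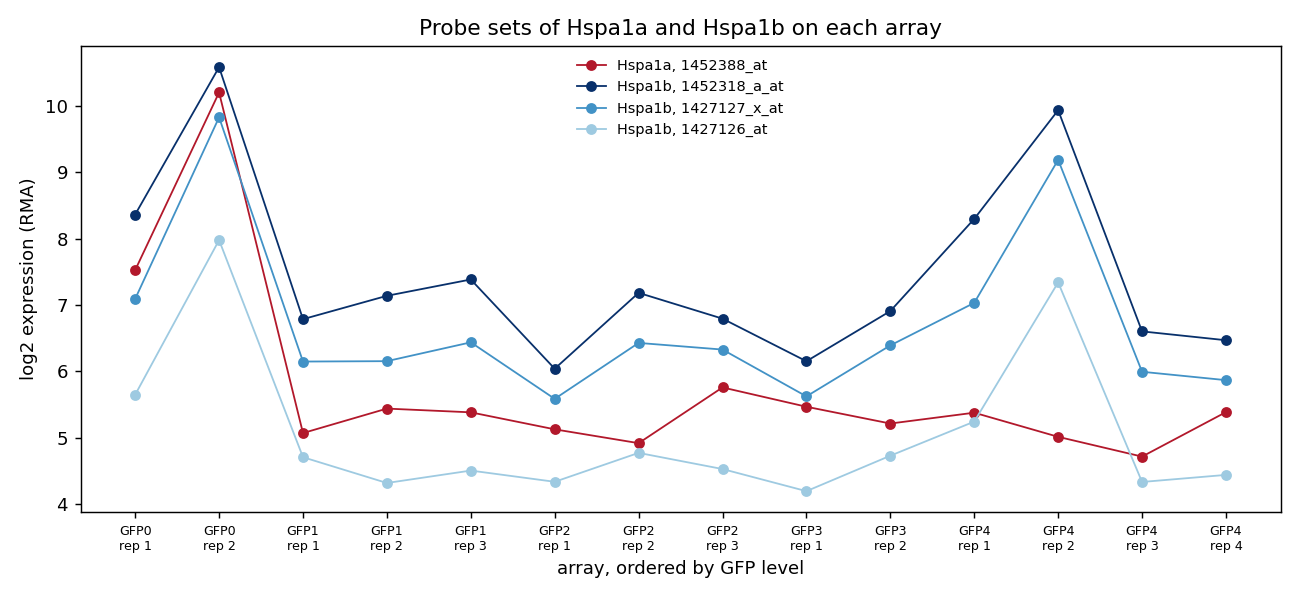
Log2 expression (vertical axis) of the Hspa1a probe set and the 3 Hspa1b probe sets on each of the 14 arrays (horizontal axis). All 4 are high in GFP0 replicate 2, whereas in GFP4 replicate 2 the Hspa1b sets reach 9.93, 9.19 and 7.34 and Hspa1a stays at 5.02.

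Among the AP-1 genes, Fos had the widest spread within levels of any member. Its values were 12.58 and 12.55 in GFP0, 9.86, 11.50 and 10.07 in GFP1, 8.62, 11.84 and 10.91 in GFP2, 12.47 and 8.99 in GFP3, and 13.11, 8.29, 11.28 and 9.40 in GFP4. The highest and the lowest of the 14 values were both GFP4 arrays, and GFP3 held 1 array near the GFP0 level and 1 far below. Fos averaged 10.52 ± 2.13 over the 4 GFP4 arrays and 12.56 ± 0.02 over the 2 GFP0 arrays (mean ± SD), and the difference of -2.04 ± 1.25 did not pass (limma adjusted p = 0.499; 95% interval -4.74 to 0.66). Its residual SD around the level means was 1.72, higher than that of 99.9% of all genes.

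Jun, the partner of Fos in AP-1, had 9.22 and 10.02 in GFP0, 8.06, 9.07 and 7.55 in GFP1, 7.80, 9.02 and 8.35 in GFP2, 8.77 and 8.04 in GFP3, and 8.98, 8.56, 8.55 and 8.53 in GFP4. Both GFP0 arrays again lay above the other 12, which was so for 3 of the 10 members (Hspa1a, Jun and Egr2) and for 1.69% of all genes; 0 members and 3.05% of genes had both GFP0 arrays below the rest. These counts were added after the values were seen. For GFP4 against GFP0 the same 3 members had all GFP4 arrays below both GFP0 arrays, where 7.75% of genes did and 10.4% had them all above, a share of 18.1% in either direction. The Jun difference of -0.97 ± 0.41 did not pass (limma adjusted p = 0.298). The second Jun probe set gave -1.36 ± 0.68 (adjusted p = 0.413 among all probe sets) and parted from the first in GFP4, with 8.08 in replicate 1, above both GFP0 arrays (7.99 and 7.96), and 4.74 in replicate 2. The count of 3 members above therefore holds for the brightest probe sets and not for the second sets of Jun and Egr2.

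Fosb and Junb, the other members of these families, showed no difference that passed. Fosb ranged from 5.0 to 7.17 with its highest value in GFP4 replicate 1 (7.17), then GFP0 replicate 1 (6.92) and GFP3 replicate 1 (6.41), and GFP4 minus GFP0 was -0.53 ± 0.52 (limma adjusted p = 0.695). Junb ranged only from 6.62 to 7.97, with level means of 7.47, 7.13, 6.94, 7.23 and 7.42 from GFP0 to GFP4, and GFP4 minus GFP0 was -0.05 ± 0.29 (limma adjusted p = 0.96). Junb was the steadiest member, with a residual SD at percentile 62.3 of all genes.

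Of Egr1 and Egr2, zinc finger factors induced by the same stimuli, only Egr2 passed for the slope, and narrowly. As a description, the 2 genes still varied together, with r = 0.60 over the 12 arrays of GFP1 to GFP4. With level means removed r was 0.72, and 0.49 without GFP4 replicates 1 and 2. Egr1 had 8.97 and 10.42 in GFP0, 7.22, 8.75 and 7.23 in GFP1, 7.41, 8.62 and 8.30 in GFP2, 9.96 and 8.32 in GFP3, and 11.07, 7.63, 9.43 and 8.53 in GFP4. Its GFP4 arrays reached both above and below those of GFP0, and the level means dipped in GFP1 and GFP2 (9.70, 7.74, 8.11, 9.14 and 9.17 from GFP0 to GFP4). GFP4 minus the mean of GFP1 and GFP2, a comparison that leaves GFP0 aside, was 1.24 ± 0.61 for Egr1, the largest of the 10 members and not past the threshold (limma adjusted p = 0.333); 0 members passed it, while 2.14% of all genes did (1.45% lower, 0.687% higher).

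Egr2 had 5.74 and 7.17 in GFP0, 4.70, 4.83 and 5.0 in GFP1, 4.84, 4.89 and 4.71 in GFP2, 4.64 and 4.59 in GFP3, and 5.61, 4.39, 5.03 and 4.78 in GFP4. Both GFP0 arrays were above the rest, the nearest being GFP4 replicate 1 by a small margin. The slope was -0.32 ± 0.08 per level and passed narrowly (limma adjusted p = 0.0475), whereas GFP4 minus GFP0 was -1.50 ± 0.36 (limma adjusted p = 0.0545). A straight line describes Egr2 poorly too, as its means from GFP1 to GFP4 were 4.84, 4.81, 4.62 and 4.95. GFP4 minus the mean of GFP1 and GFP2 was 0.12 ± 0.27 (limma adjusted p = 0.818). The slope call was lost in 22 of 26 alternatives, among them leaving out GFP0 replicate 2 (-0.18, limma adjusted p = 0.191), and over the 26 its adjusted p ran from 0.00521 to 0.295. Egr2 was dim, with a mean of 5.07, and its second probe set read 5.23 in GFP0 replicate 2 but 3.50 in GFP0 replicate 1, below all 4 GFP4 arrays (3.61 to 3.89), with a slope of -0.14 ± 0.08 (adjusted p = 0.414 among all probe sets).

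Dusp1, the nuclear MAP kinase phosphatase, had 8.98 and 9.29 in GFP0, 7.0, 7.90 and 7.70 in GFP1, 7.70, 9.07 and 8.77 in GFP2, 9.72 and 8.42 in GFP3, and 10.01, 5.97, 9.41 and 8.95 in GFP4. The GFP4 arrays alone spanned the whole range of the gene, from its lowest to its highest value. GFP4 minus GFP0 was -0.54 ± 0.85 (limma adjusted p = 0.814). Ier2, a short immediate early nuclear protein, had 10.29 and 10.93 in GFP0, 10.08, 10.08 and 9.80 in GFP1, 9.56, 10.28 and 10.47 in GFP2, 10.93 and 10.36 in GFP3, and 11.18, 8.76, 10.62 and 9.65 in GFP4. It too had both extremes in GFP4, and GFP4 minus GFP0 was -0.55 ± 0.52 (limma adjusted p = 0.682).

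**Figure D3:**
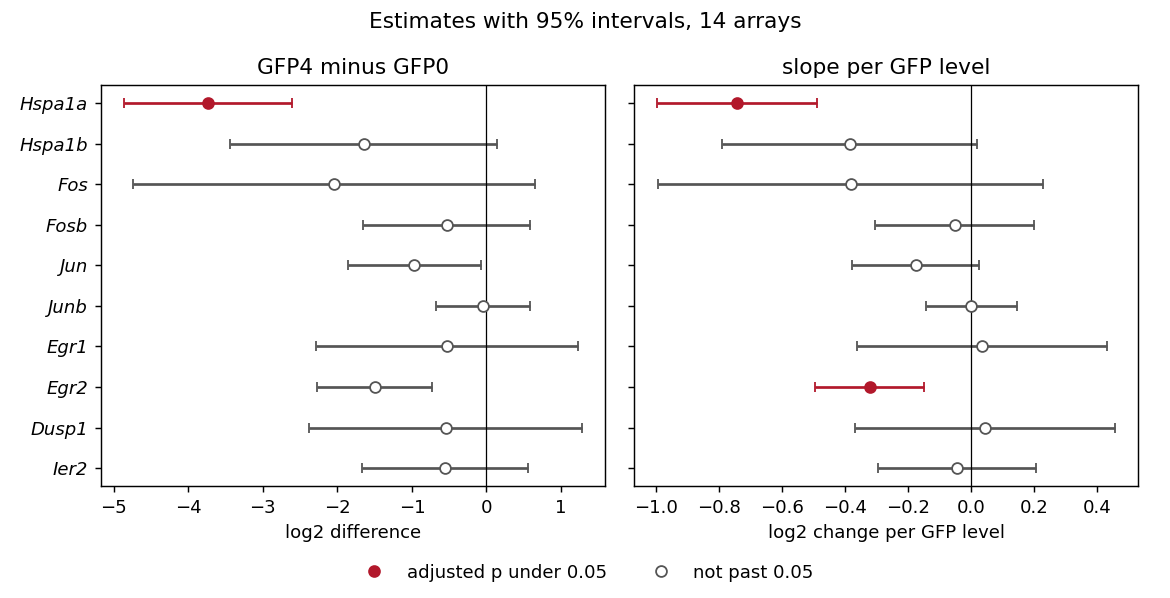
Slope per GFP level and GFP4 minus GFP0 difference (horizontal axes, log2) of each member (vertical axis) with its 95% interval from limma. Only Hspa1a and Egr2 pass for the slope and only Hspa1a for the difference, and the intervals of Fos, Egr1 and Dusp1 are wide.

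Between neighbouring levels none of the 10 members and 0 of all genes passed after adjustment (limma, 0% called at each step). At an unadjusted p under 0.05 the step GFP1 minus GFP0 held 5 members (Hspa1a, Hspa1b, Jun, Egr1 and Egr2) and 1969 genes, and the later steps held 0 members each with 493, 247 and 716 genes. Whether the order of levels differs between members was not tested. By level means Hspa1a had GFP0 first and GFP1 to GFP4 within 0.22 of one another, less than the SD within GFP4. For Dusp1 the GFP0, GFP3, GFP4 and GFP2 means (9.13, 9.07, 8.59 and 8.52) lay within the spread of their arrays. Its lowest mean was GFP1 at 7.53, but the GFP1 arrays (7.0 to 7.90) lay inside the GFP4 range (5.97 to 10.01). No difference among the levels passed for Dusp1 (moderated F test, adjusted p = 0.699).

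The spread within levels differed between members. Over the 10 members the median residual SD was 0.69, against 0.31 over all genes, and Fos, Dusp1, Hspa1b and Egr1 stood between percentiles 99.6 and 99.9, Jun at 88.7, Egr2 at 79.6 and Junb at 62.3. In GFP4 replicate 1, 6 of the 8 immediate early members had their highest value of all 14 arrays (Fos, Fosb, Junb, Egr1, Dusp1 and Ier2), and all 8 lay above their GFP4 mean. In GFP4 replicate 2, 4 of the 8 had their lowest value of all 14 arrays (Fos, Egr2, Dusp1 and Ier2), and 0 of 8 lay above the mean. GFP2 replicate 2 had 8 of 8 above its level mean and GFP2 replicate 1 had 1 of 8. The share of all genes with their highest or lowest value in each array was not counted. These counts can therefore not be told apart from traits of the whole array. GFP4 replicate 1 had an interquartile range of 2.21 and the lowest array quality weight of all arrays (0.30).

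**Figure D4:**
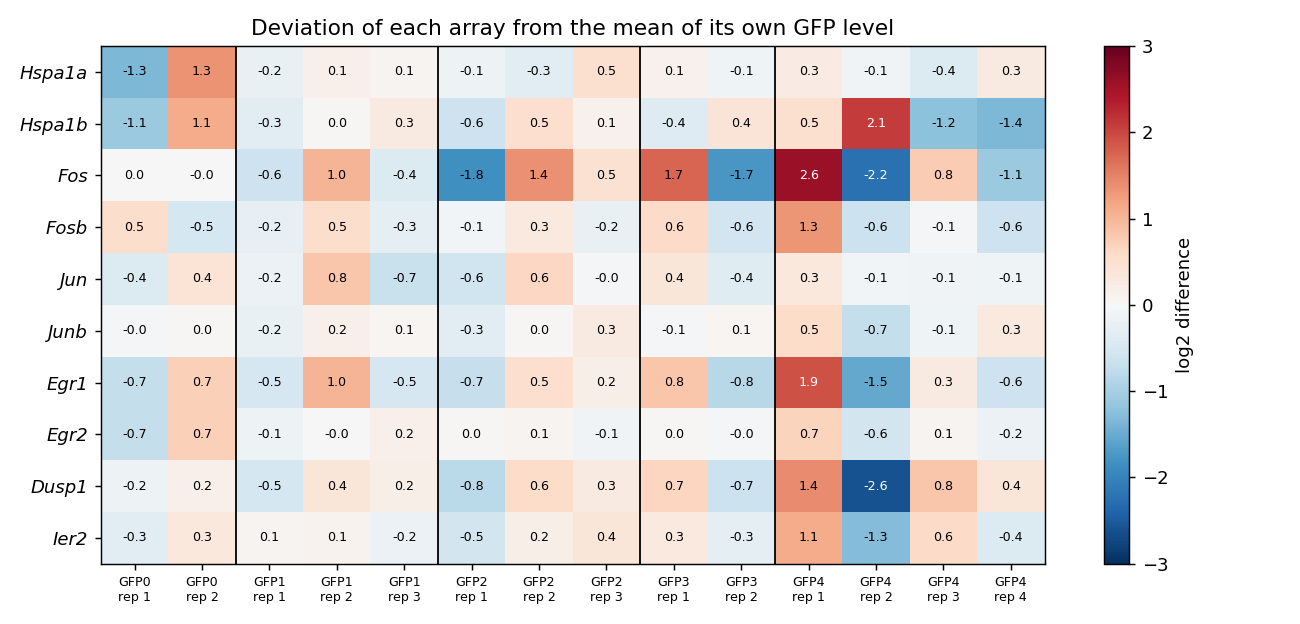
Deviation of each member from its level mean (colour, log2) on each of the 14 arrays. GFP4 replicate 1 is above its level mean for all 8 immediate early members and GFP4 replicate 2 for none, while Hspa1b is high in GFP4 replicate 2.

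Pairs of members were correlated over the 14 arrays, 45 pairs in all, with permutation p-values adjusted over the 45. Fos and Egr1 had r = 0.81 (permutation p = 0.00044, adjusted 0.00412) and rho = 0.81 (permutation p = 0.00092, adjusted 0.00828), and r = 0.78 without the 2 arrays farthest from the median of Fos. Dusp1 and Ier2 had r = 0.86 (permutation p = 0.00013, adjusted 0.00405) and rho = 0.85 (permutation p = 0.00022, adjusted 0.0033), and r = 0.82 without the 2 farthest. Of the 28 pairs among the 8 immediate early members 19 passed by Pearson's r and 14 by Spearman's rho, with r between 0.45 and 0.86. The share of all gene pairs that would pass was not counted, and the permutations did not keep arrays within their levels. Genes outside the members reached higher values, with r = 0.93 for Fosb and Igfbp5 and 0.91 for Dusp1 and Erc1, picked as the highest among 11712 genes. Of the 17 pairs with Hspa1a or Hspa1b 5 passed by Pearson's r and 0 by Spearman's rho. The 5 were Hspa1a with Hspa1b, Jun and Egr2, and Hspa1b with Jun and Egr2. Over GFP1 to GFP4 alone their r was -0.14, -0.01, 0.03, 0.22 and -0.01. Hspa1b with Fos, Fosb, Junb, Egr1, Dusp1 and Ier2 had r between -0.14 and 0.30, none of which passed. With level means removed these were -0.13, -0.18, -0.27, -0.005, -0.46 and -0.21. Without GFP4 replicate 2 they became 0.38, 0.12, 0.60, 0.63, 0.47 and 0.64.

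The differences between levels were then removed by taking each array's deviation from its level mean. The median r over the 28 immediate early pairs was 0.66 (as a description, 0.22 to 0.91), and for Fos and Egr1 it was 0.91. GFP4 replicates 1 and 2 carried part of it: the median was 0.58 without replicate 2 and 0.43 without both, when the lowest pair stood at -0.43. Hspa1a with level means removed had r = 0.71 against Egr2, 0.39 against Egr1 and 0.09 against Fos. The 2 GFP0 arrays deviated most for Hspa1a, by 1.34 on either side of their mean, and over the 12 arrays of GFP1 to GFP4 r was 0.03 against Egr2, 0.13 against Egr1 and 0.21 against Fos.

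Measures of the arrays were set against the members in 40 relations. The interquartile range passed for Fosb by Pearson's r (-0.78, permutation p = 0.00096, adjusted 0.0384) but not by Spearman's rho (-0.67, permutation p = 0.0112, adjusted 0.346). Its r was -0.46 without GFP0 replicate 1 and GFP4 replicate 1, and -0.68 over GFP1 to GFP4. With level means removed r was -0.75, and -0.69 without GFP4 replicates 1 and 2. The 3 prime minus 5 prime difference of Actb, a sign of RNA quality, ran from 2.99 to 5.05 over the arrays and was 4.88 in GFP4 replicate 1 and 4.63 in replicate 2, the arrays with most of the members' extremes. The neutrophil, monocyte and macrophage marker mean was 7.51 in replicate 1 and 9.11 in replicate 2. The part of these measures in the members' spread was not tested beyond these relations.

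Outside the 10 members, 51 other immediate early genes, 11 other feedback inhibitors of MAP kinase signalling, 30 other chaperones and stress proteins and 16 upstream kinases and transcription factors were measured. Of the immediate early genes 1 fell with the slope and 50 did not pass (median slope -0.02, against -0.01 over all genes). The one was Rgs2, a regulator of G protein signalling, with 11.76, 11.65, 11.63 and 11.52 in GFP4 and 12.54 and 12.78 in GFP0. All GFP4 arrays were below both GFP0 arrays and the GFP1 to GFP3 arrays lay in between. Its slope was -0.24 ± 0.04 (limma adjusted p = 0.0101) and its GFP4 minus GFP0 difference -1.02 ± 0.19 (limma adjusted p = 0.0176). Rgs1, Zfp36l2 and Cebpd had the largest slopes in size (0.27, 0.26 and -0.26) and did not pass.

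Of the 11 feedback inhibitors 2 rose with the slope, none fell and 9 did not pass (median slope 0.03). Dusp4, a phosphatase of nuclear MAP kinases like Dusp1, had 7.90, 9.35, 7.68 and 7.51 in GFP4 and 5.90 and 6.36 in GFP0, a slope of 0.56 ± 0.11 (limma adjusted p = 0.0159). Dusp2, another of this family, had 10.24, 9.58, 9.75 and 9.83 in GFP4 and 8.85 and 8.75 in GFP0, a slope of 0.28 ± 0.07 (limma adjusted p = 0.0496). GFP4 minus GFP0 did not pass for Dusp4 (1.98, limma adjusted p = 0.0561) or Dusp2 (1.05, limma adjusted p = 0.116), although all GFP4 arrays were above both GFP0 arrays in both genes, as in 10.4% of all genes. The slope of Dusp1 was 0.04. Dusp16 had a slope of 0.35 that did not pass.

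No chaperone passed in either direction, of 30 measured. Their slopes were below 0 in 26 of 30 (86.7%, against 54.8% of all genes), and the median GFP4 minus GFP0 difference was -0.48 against -0.04 over all genes. That median depended on 1 array and was -0.19 without GFP0 replicate 2, the array with the highest Hspa1a and Hspa1b. Hspe1, Fkbp4 and Hspa14 had the largest slopes (-0.25, -0.24 and -0.22). Of the 16 upstream genes 1 rose, Mrtfb, a coactivator of SRF, with a slope of 0.31 ± 0.07 (limma adjusted p = 0.0345), and 15 did not pass; Elk3 and Elk4, SRF partners, had slopes of 0.25 and 0.20 that did not pass. Of the 27 alternatives, the slope call was lost in 3 for Rgs2, 5 for Dusp4, 20 for Dusp2 and 14 for Mrtfb. The lists were chosen with earlier results of these data known.

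**Figure D5:**
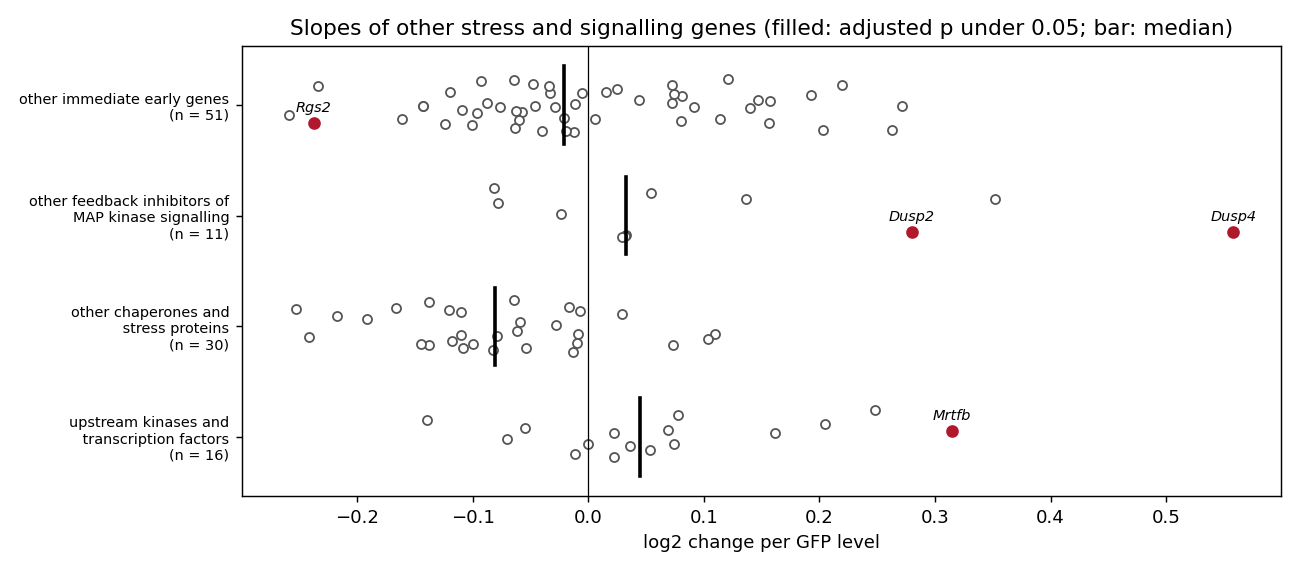
Slope per GFP level (horizontal axis, log2 per level) of each measured gene of the 4 further lists; filled points pass the threshold in limma and black bars are list medians. The chaperones lie mostly below 0 with none past the threshold, and the passing genes are Rgs2, Dusp2, Dusp4 and Mrtfb.

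Genes most like each member were sought among 11712 non-member genes whose mean reached the table's median, by Pearson's r over the 14 arrays. For Hspa1a, Jun and Egr2, whose GFP0 arrays lie above the rest, the nearest genes are named without that pooled value and with r after removal of level means. They were Hspa2 (0.71), Mrpl39 (0.80) and Gpatch2l (0.58) for Hspa1a, and Hspa2 (0.85), Gpatch2l (0.80) and Foxk2 (0.77) for Egr2. For Jun they were Gpatch2l (0.75), Cd80 (0.73) and Pln (0.71). These genes were still picked by the pooled value. Removal of level means leaves the 2 GFP0 arrays on either side of their mean, by 1.34 for Hspa1a, 0.71 for Egr2 and 0.40 for Jun. The SD of Hspa2 was 0.36 in GFP0 and between 0.05 and 0.14 in the other levels, so its r can rest largely on those arrays. Hspa1b was most like Med6 (0.88), Nsun6 (0.82) and Emx1 (0.79), none of which were among the nearest to Hspa1a. Bcor recurred as one of the nearest genes to Fos (0.81), Dusp1 (0.88) and Ier2 (0.83), and the gene most like Fosb was Igfbp5 (0.93) and that most like Dusp1 was Erc1 (0.91). Junb was most like Zswim6 (0.87) and Egr1 was most like Nrarp (0.78). These are the highest of many correlations and are given as a description.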

How the data were processed

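RNA from sorted cells was amplified, labelled with biotin and hybridised to Affymetrix arrays, per the labels' protocols. Per the submitters' processing notes GCOS, RMA and affy were used (versions not given in the sources used here), and the deposited table holds log2 expression per probe set, without detection calls. Values were used as deposited. Of 45101 probe sets, 34958 name 1 gene symbol by the platform annotation, and the brightest by mean over 14 arrays stood for each of 18194 genes. A group means model was fitted to all 14 arrays with limma 3.58.1 (R 4.3.3), with 9 residual and 3.99 prior degrees of freedom, and contrasts were the slope over the 5 level means, GFP4 minus GFP0, GFP4 minus the mean of GFP1 and GFP2, the neighbouring steps and an F test. The fit was tested on simulated data.

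Correlations used 100000 permutations (Python 3.11.15, numpy 2.4.6, scipy 1.17.1), and figures matplotlib 3.10.9. Members and lists were chosen with earlier results of these data known. Besides the members, the genes named were those of each list past the threshold, the 3 with the largest slopes per list and the 3 genes most like each member. Alternatives covered scaling, dim genes, probe sets, variance model, array weights, a replicate block, single arrays left out and covariates chosen after seeing the data. Promoter windows are RefSeq's (GRCm38.p6); no genome build of the arrays is given in the sources used here.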

Additional observations from a re-analysis of the deposited data

Results flagged for a closer look

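Jun in GFP4 replicate 1 (8.98) stood apart from the other 3 GFP4 arrays, which lay at 8.56, 8.55 and 8.53, by Dixon's test at the 95% level. The test was run at both ends of the GFP4 values of each of the 10 members and of Rgs2, Dusp2, Dusp4 and Mrtfb, and flagged only this value. The same array had the highest value of the 14 for Fos, Fosb, Junb, Egr1, Dusp1 and Ier2, and for Jun in its second probe set (8.08), while in the first the highest Jun array was GFP0 replicate 2 (10.02). In the second probe set GFP4 replicate 2 was the lowest, at 4.74.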

How the results depend on the processing

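The slope called 2 members. It called 1 (Hspa1a) with arrays centred on their medians, cyclic loess, the mean over probe sets, every probe set by itself, array quality weights, and, chosen after seeing the data, with 3 prime to 5 prime differences, the interquartile range or the neutrophil and monocyte marker mean as covariates. It called 0 with a linear regression on the level, and 0 with dim genes left out, when Hspa1a and Egr2 are no longer tested. Leaving out single arrays gave 1 to 2. GFP4 against GFP0 called 1 member. It called 0 with dim genes left out, with array quality weights and on the GFP4 and GFP0 arrays alone, 2 (Hspa1a and Egr2) with trend and robust variance and with the GFP0 and GFP4 arrays numbered 1 left out (an alternative chosen after seeing the data), and 1 to 2 without single arrays. The F test called 1 member; it called 0 with median centring, cyclic loess, dim genes left out, 3 prime to 5 prime differences or the marker mean as covariates, 2 with the arrays numbered 1 left out, and 0 to 1 without single arrays. Over all genes the slope called 609 (32 to 798 across alternatives), GFP4 against GFP0 306 (2 to 363) and the F test 127 (11 to 335).

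Replicate numbers recur across levels, and the labels do not say whether arrays of one number belong together. With level means removed, same-numbered arrays correlated above 0.1 in 9 of 23 pairs (-0.26 to 0.58). Their median r was 0.05, against -0.05 for arrays with different numbers. In a level of 2 arrays the deviations mirror each other, so the pairs are not independent and cannot settle whether the arrays are paired. With the replicate block the slope called 1 member (Hspa1a, -0.77, limma adjusted p = 0.0208), GFP4 against GFP0 1 and the F test 0.

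Directions near 0 turned. The slope of Fosb was 0.0015 with the replicate block, 0.0028 with the regression and 0.0569 with the interquartile range (-0.158 to 0.0539 without single arrays). That of Junb was -0.0242 with the block, -0.0192 with the 3 prime to 5 prime differences, -0.12 with the marker mean and -0.0444 without the arrays numbered 1 (-0.0353 to 0.048 without single arrays). That of Egr1 was -0.13 with the marker mean and -0.24 without the arrays numbered 1 (-0.11 to 0.18). That of Dusp1 was -0.0027 with the block, -0.0701 with the 3 prime to 5 prime differences, -0.25 with the marker mean and -0.0814 without the arrays numbered 1 (-0.0505 to 0.219). That of Ier2 ran from -0.12 to 0.0407 without single arrays. GFP4 minus GFP0 without single arrays ran from -0.23 to 0.19 for Junb, -1.25 to 0.19 for Egr1 and -1.02 to 0.33 for Dusp1. Unless stated, the cause was not tested. Dim probe sets have no detection calls.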

Other observations

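Among the other listed genes, some varied with Fos inside the levels, up or down, although no difference between levels passed for them. With level means removed, r with Fos was 0.83 for Ccl3, a chemokine, 0.77 for Spry1 and 0.76 for Dusp6, feedback inhibitors of ERK signalling, 0.71 for Rgs1, 0.71 for Klf6 and 0.66 for Nr4a1, an immediate early nuclear receptor. It was below 0 for Gadd45g (-0.74), Ier5l (-0.66), Zfp36l2 (-0.65), Hspb8 (-0.64), Cebpd (-0.63) and Btg2 (-0.63). All of these were picked after their values were seen. An r with Fos over 0.5 was found for 11 of the 51 other immediate early genes (21.6%), 2 of 11 feedback inhibitors (18.2%), 3 of 30 chaperones (10%), 1 of 16 upstream genes (6.25%) and 9.02% of all genes, as a description with no test. Of 2 heat-inducible partners of Hsp70, Dnajb1 averaged 12.54 in GFP4 and 12.67 in GFP0 (-0.13, limma adjusted p = 0.835), and Hsph1 averaged 11.22 in GFP4 and 12.28 in GFP0 (-1.05 ± 0.27, limma adjusted p = 0.0686). With level means removed, r with Hspa1a was 0.57 for Dnajb1 and 0.47 for Hsph1, and neither difference passed. The GFP0 arrays deviated most from their level mean for Hspa1a, so these r can rest largely on them.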
